A study of Mus musculus with 2 samples.

Results

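Adarb2 interneurons without Vip were 122 of the 12918 nuclei (0.944%) sequenced from the entorhinal cortex of 18-month-old male APP/PS1 mice. They were chosen from the UMI counts of each nucleus. A UMI, or unique molecular identifier, marks 1 captured RNA molecule. A nucleus had to hold at least 5000 UMIs in total, at least 8 UMIs and at least 0.05% of its total from Gad1 and Gad2 together, at most 3 Slc17a7 UMIs, at least 10 Adarb2 UMIs and at most 1 Vip UMI. These cells were 37.1% of the 329 nuclei that passed the Gad1, Gad2 and Slc17a7 limits. APP/PS1 mice are transgenic and accumulate amyloid. One library came from mice given vehicle (DMSO). The other came from mice given OLE (C18:1-Leu, N-oleoyl-leucine), an N-acyl amino acid, at 25 mg/kg/day, dissolved in alkaline water that they drank between the ages of 15 and 18 months. Both groups carry the transgenes, and no wild-type library was analysed here. Each library pooled the entorhinal cortices of 5 mice, so there was 1 sample per group. No difference between the libraries could be tested against the spread between mice, and the 95% intervals given here cover counting error only.

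Cortical inhibitory neurons use GABA, which the enzymes encoded by Gad1 and Gad2 make from glutamate. Adarb2 marks the interneurons that arise in the caudal ganglionic eminence of the embryo, and Lhx6 and Sox6 mark those of the medial ganglionic eminence, which include the Sst and Pvalb cells. Among Adarb2 interneurons, the Vip cells mostly inhibit other interneurons, the Lamp5 class includes neurogliaform cells that release GABA diffusely onto dendrites, and the Sncg class includes Cck basket cells whose output is controlled by the cannabinoid receptor Cnr1.

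The vehicle library held 60 of these nuclei and the OLE library held 62. They were 1.99% of the nuclei with at least 5000 UMIs in the vehicle library (Clopper-Pearson 95% interval 1.52 to 2.56) and 1.66% in the OLE library (1.28 to 2.13). As a share of the nuclei passing the GABAergic limits they were 40.8% (32.8 to 49.2) and 34.1% (27.2 to 41.4), and both pairs of intervals overlapped. Other nuclei cut by the same limits serve as comparison: the Vip nuclei, with at least 10 Adarb2 and at least 2 Vip UMIs (15 vehicle and 17 OLE), and the Adarb2-low nuclei, with at most 2 Adarb2 UMIs (68 and 98). Another 4 and 5 GABAergic nuclei lay between the Adarb2 limits and were in no group.

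The limits on Adarb2 and Vip fell where few nuclei lay. Adarb2, which encodes an RNA-binding protein of the ADAR family, had a median of 148 UMIs in vehicle members and 115.5 in OLE members. Its lowest values were 29 and 11, and 0 and 2 members lay between 10 and 19 UMIs. The nuclei just outside held 3 to 8 and 3 to 9 Adarb2 UMIs. Vip was at 0 in 57 and 59 members and at 1 UMI in 3 and 3. In the Vip nuclei, Vip ranged from 4 to 88 UMIs in vehicle and from 2 to 149 in OLE, and 1 and 3 of them held 2 to 4 UMIs. The Gad1 and Gad2 sum had a median of 19.5 and 18 UMIs and began at its limit of 8 in both libraries. These values follow from the rule and are given as a description.

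The 2 libraries held 70845739 and 69485537 UMIs over 6745 vehicle and 6173 OLE nuclei. The members held 1331910 and 1133344 UMIs, with a median of 18259.5 per vehicle member and 15943 per OLE member. Mitochondrial transcripts took 0.416% and 0.526% of their UMIs. The nuclear RNA Malat1 took 1.84% and 1.88%. The libraries shared 14 nucleus barcodes, and no member barcode of one was a member barcode of the other. One vehicle member stood apart by depth, with 98124 UMIs (7.37% of the vehicle members' UMIs) against 46717 in the next. It held 24 of the 30 Sst and 80 of the 101 Sox6 UMIs in the vehicle members. One OLE member carried many astrocyte transcripts and is described with Apoe. Results that rest mostly on either are given with and without it.

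The name was checked against the markers Gad2, Adarb2, Lamp5, Cck and Reln. The rule used Gad2 and Adarb2, so only Lamp5, Cck and Reln could check it. Reln, which encodes a secreted glycoprotein of superficial interneurons, was at 1598 CPM (UMIs per 1000000 UMIs of the group) in vehicle members and 1691 CPM in OLE members. It was detected in 49 of 60 and 44 of 62 nuclei, with medians of 10 and 16 UMIs and maxima of 158 and 215. The Vip nuclei had 28.2 and 200 CPM of Reln and the Adarb2-low nuclei 264 and 249. Lamp5, a lysosome-associated membrane protein family member that names the class, was at 98.4 (Poisson 95% interval 82.2 to 117) and 152 (130 to 176) CPM. Its UMIs came from 43 and 47 nuclei, with at most 8 and 12 in 1 nucleus. Lamp5 was at 0 and 14.3 CPM in Vip nuclei and at 3.24 and 6.75 in Adarb2-low nuclei. The summed levels of Reln and Lamp5 were therefore higher in the members than in both other groups in both libraries, though not every member held them.

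Cck gave a divided answer. This neuropeptide transcript is abundant in excitatory neurons, and it was at 71.3 and 86.5 CPM in the members against 234 and 143 in the Vip nuclei and 21.4 and 29.9 in the Adarb2-low nuclei. It was thus higher than in one group and lower than in the other in both libraries. With each nucleus thinned to 2000 UMIs, 16.7% and 11.3% of members held a Cck UMI. The share was 16.2% and 17.4% in oligodendrocyte nuclei of the same libraries, which should lack the gene. The share of members with a Cck UMI was therefore not above that background at this depth, and free RNA and the members' own Cck could not be told apart. The same comparison gave 15% and 27.4% of members with Lamp5 against 3.33% and 3.16% of oligodendrocyte nuclei. For Reln it gave 63.3% and 62.9% against 6.90% and 7.63%. Gad2 was at 75% and 71% against 1.90% and 3.95%, but the rule used Gad2, so that gap is description only. Before thinning, the 420 and 380 oligodendrocyte nuclei had medians of 4167.5 and 3739 UMIs, shallower than the members.

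Of 10 measured genes of the Lamp5 class list, 5 were at least 2-fold higher in the members than in the Adarb2-low nuclei in both libraries (Lamp5, Reln, Kit, Ndnf and Sv2c). Eya4, a transcriptional coactivator, was lower, at 17.3 and 13.2 CPM against 213 and 148. Against the Vip nuclei, 5 of 7 were higher and Fstl5 was lower, at 266 and 274 CPM against 968 and 578. Ndnf, a secreted neurotrophic factor of layer 1 interneurons, was at 89.3 and 162 CPM in the members and at most 10.7 in any other group. Sv2c, a synaptic vesicle glycoprotein, was at 294 and 281 in the members, 4.03 and 42.9 in Vip nuclei and 1.30 and 6.75 in Adarb2-low nuclei. The neuropeptide gene Npy was at 112 and 240 in the members, against 8.06 and 89.3 in Vip nuclei and 62.2 and 83.9 in Adarb2-low nuclei. The receptor tyrosine kinase gene Kit was at 288 and 356 in members and 226 and 229 in Vip nuclei, but at 6.48 and 7.23 in Adarb2-low nuclei. The neurexin ligand gene Nxph1 was at 2096 and 2330 in the members, 92.7 and 404 in Vip nuclei and 3761 and 3215 in Adarb2-low nuclei.

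Genes of the Sncg and Cck class were divided. Cnr1 was at 351 and 289 CPM in the members, which was near the 411 and 421 of the Vip nuclei and above the 28.5 and 38.1 of the Adarb2-low nuclei. Sncg, which names the class, had 1 UMI in each library's members, and Slc17a8, the vesicular glutamate transporter of some Cck cells, had 1 and 4. Of the caudal lineage transcription factor genes, Prox1 was at 96.1 and 108 CPM and Nr2f2 at 72.8 and 57.4, against at most 12.1 in the Adarb2-low nuclei. In the Vip nuclei Prox1 was higher, at 319 and 250, and Sp8 had 2 and 1 UMIs in the members. Htr3a, the serotonin-gated channel of caudal interneurons, was at 10.5 and 5.29 in members and 52.4 and 129 in Vip nuclei. Most markers of medial interneurons were low, but Nxph1, which is on the same list, was detected in 86.7% and 87.1% of members. Pvalb had 1 UMI in each library's members, Lhx6 was at 4.50 and 14.1 CPM against 55.1 and 63.6 in Adarb2-low nuclei, and Sst was at 22.5 and 17.6 against 332 and 685. Without the deepest member of each library Sst was at 4.86 and 17.4 CPM.

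**Figure D1:**
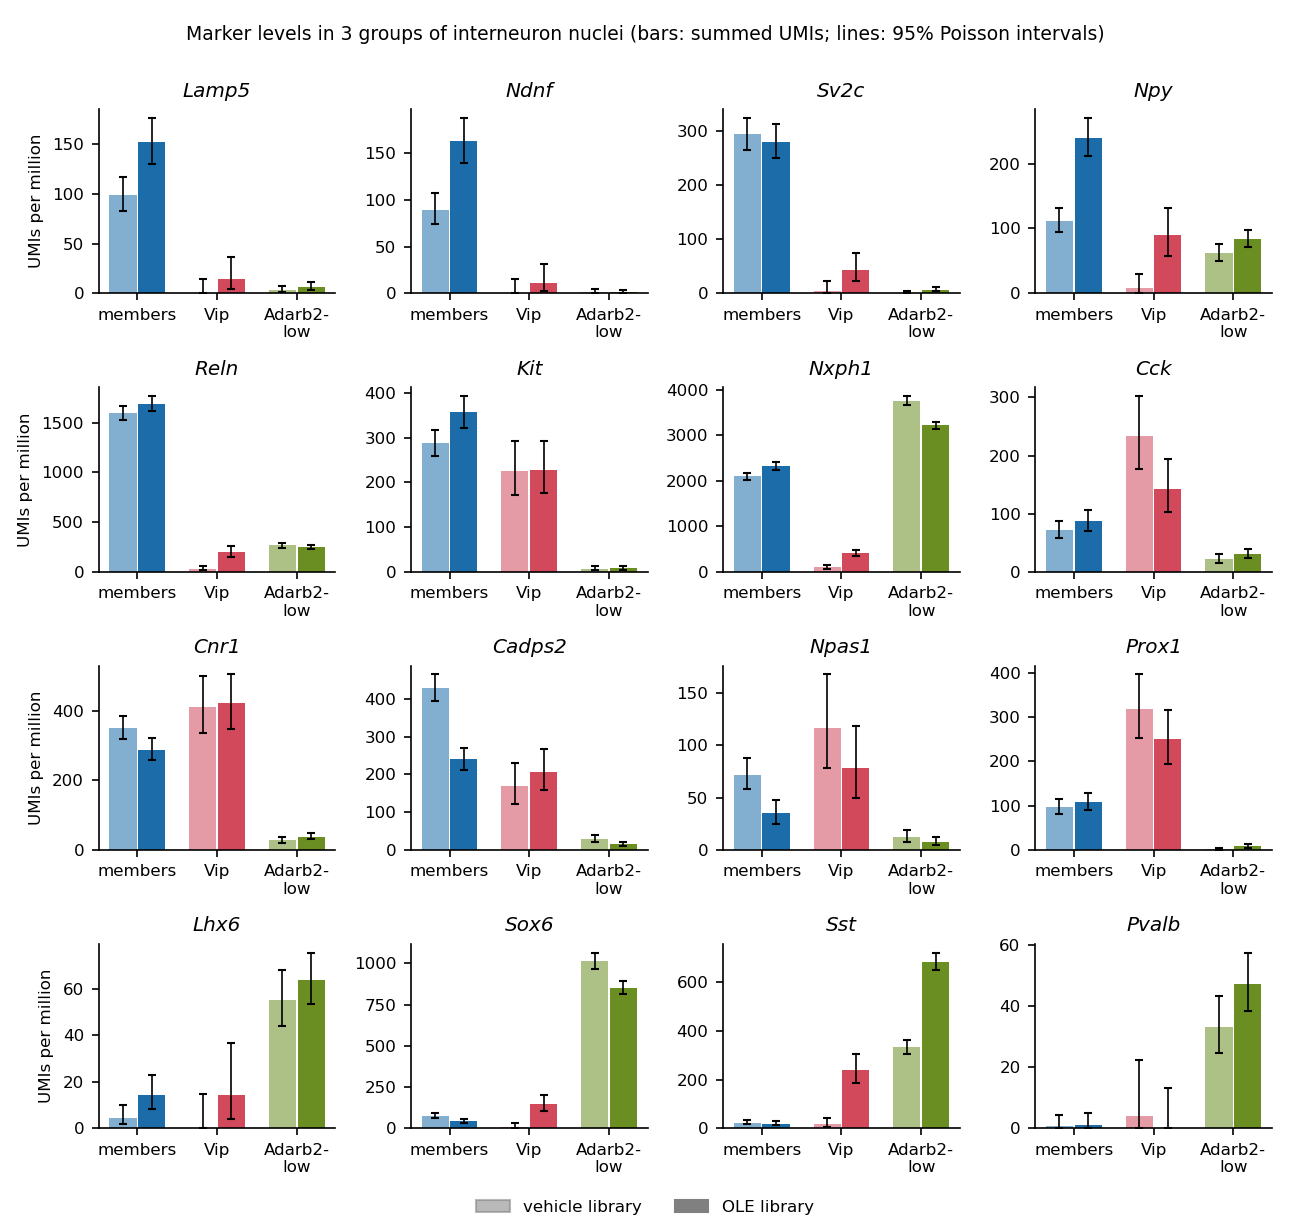
Summed UMIs as CPM of marker genes in the members, the Vip nuclei and the Adarb2-low nuclei of the vehicle and OLE libraries, with lines for Poisson 95% intervals. Lamp5 stood at 98.4 and 152 CPM in the members and at or below 14.3 in the other groups, while Cck was higher in the Vip nuclei.

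The members were not uniform. Lamp5 was at 3 or more UMIs in 23 vehicle and 24 OLE members, at 1 or 2 in 20 and 23, and at 0 in 17 and 15. Nuclei with 3 or more had a median of 19204 and 20474 UMIs in total and those with none 18005 and 12739, so depth differed between the sides in the OLE library and little in the vehicle library. The comparison of the sides below uses 2208 genes with at least 200 UMIs over the members. Because the sides were cut from the same counts, the values are a description with no test. Between them, 11 genes (0.498%) were at least 4-fold higher on the Lamp5 side in both libraries, 10 without Lamp5 itself, and 19 (0.861%) at least 4-fold lower.

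Genes higher with Lamp5 included a vesicle protein, receptors and Npy. Sv2c was at 431 CPM in vehicle nuclei with 3 or more Lamp5 UMIs and at 38.6 in those with none, and in the OLE library at 411 and 40.9. The phosphodiesterase gene Pde11a was at 743 against 86.0 and at 1022 against 141. Itgbl1, which encodes an integrin-like extracellular protein, was at 147 against 5.93 and at 99.6 against 9.08. These gaps recurred in both libraries. Kit was 4.51-fold and 4.62-fold higher on the Lamp5 side, Npy 4.30-fold and 7.94-fold, the orexin receptor gene Hcrtr2 14.6-fold and 9.46-fold, and the serotonin receptor gene Htr1f 5.46-fold and 4.58-fold. Nxph1 was at 3283 against 320 in vehicle and at 2754 against 1054 in OLE. Reln differed less, with log2 ratios of 0.69 and 0.58.

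Nuclei without Lamp5 carried another set. The cannabinoid receptor gene Cnr1 was at 718 CPM in vehicle nuclei without Lamp5 and at 218 in those with 3 or more, and in the OLE library at 777 and 190. On the side without Lamp5, 1 nucleus held 96 of its 242 vehicle UMIs and 1 held 54 of its 171 OLE UMIs. The cation channel gene Trpm3 was 17.3-fold and 10.8-fold higher without Lamp5, with 49.8% and 65.0% of its UMIs on that side in 1 nucleus. The related channel gene Trpc4 was 9.84-fold and 18.1-fold higher, and Brinp3 11.3-fold and 10.5-fold. The collagen-type membrane protein gene Col25a1 was 6.73-fold and 9.18-fold higher, with 41.9% and 56.7% of its UMIs there in 1 nucleus. Further genes were adhesion gene Dscam (5.15-fold and 5.75-fold) and the serotonin receptor gene Htr2c (11.8-fold and 4.83-fold). Cadps2, which acts in dense-core vesicle release, was 51.8-fold and 17.3-fold higher, but 1 nucleus held 43.2% and 74.9% of its UMIs on that side.

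**Figure D2:**
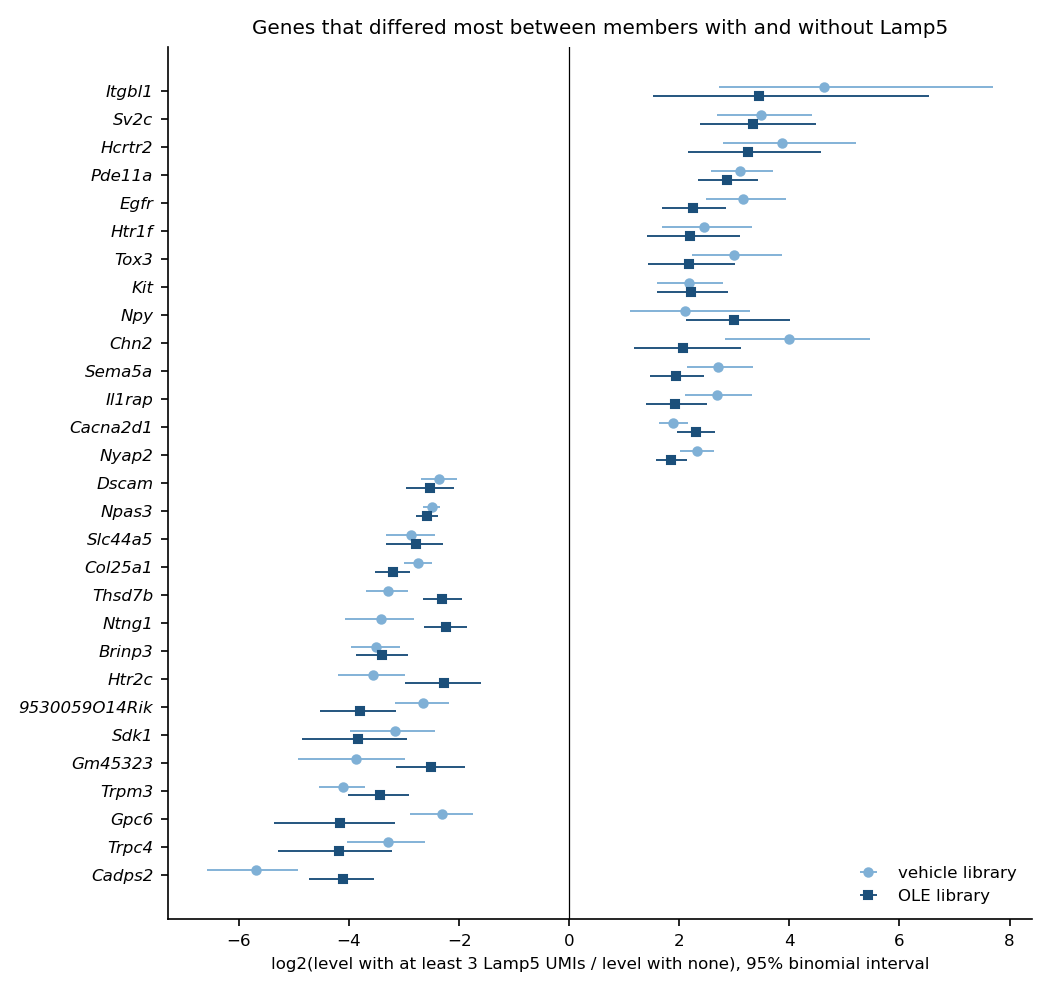
Log2 ratio of CPM in members with at least 3 Lamp5 UMIs over members with none, for 29 genes in each library, with 95% counting intervals. Sv2c, Pde11a and Hcrtr2 were on the Lamp5 side in both libraries, and Trpm3, Trpc4 and Brinp3 on the other.

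The division was clear in single nuclei for Sv2c and less so for Cadps2 and Cnr1. Of the members with at least 3 Lamp5 UMIs, 17 of 23 in vehicle and 17 of 24 in OLE also held at least 3 Sv2c UMIs, against 1 of 17 and 2 of 15 of those with no Lamp5. At least 3 Cadps2 UMIs were in 1 of 23 and 6 of 24 with Lamp5 and in 9 of 17 and 5 of 15 without, so the OLE shares lay close. For Cnr1 the counts were 12 of 23 and 12 of 24 against 11 of 17 and 10 of 15. Ndnf went with Reln, since 15 of 15 and 17 of 19 nuclei with at least 3 Ndnf UMIs held at least 3 Reln UMIs. Of the nuclei with Ndnf, 3 of 15 and 4 of 19 held at least 3 Npy UMIs, close to the 15 of 60 and 19 of 62 among all members. Median Nxph1 was 26 and 32.5 UMIs per nucleus, with maxima of 387 (the deepest vehicle nucleus) and 209.

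**Figure D3:**
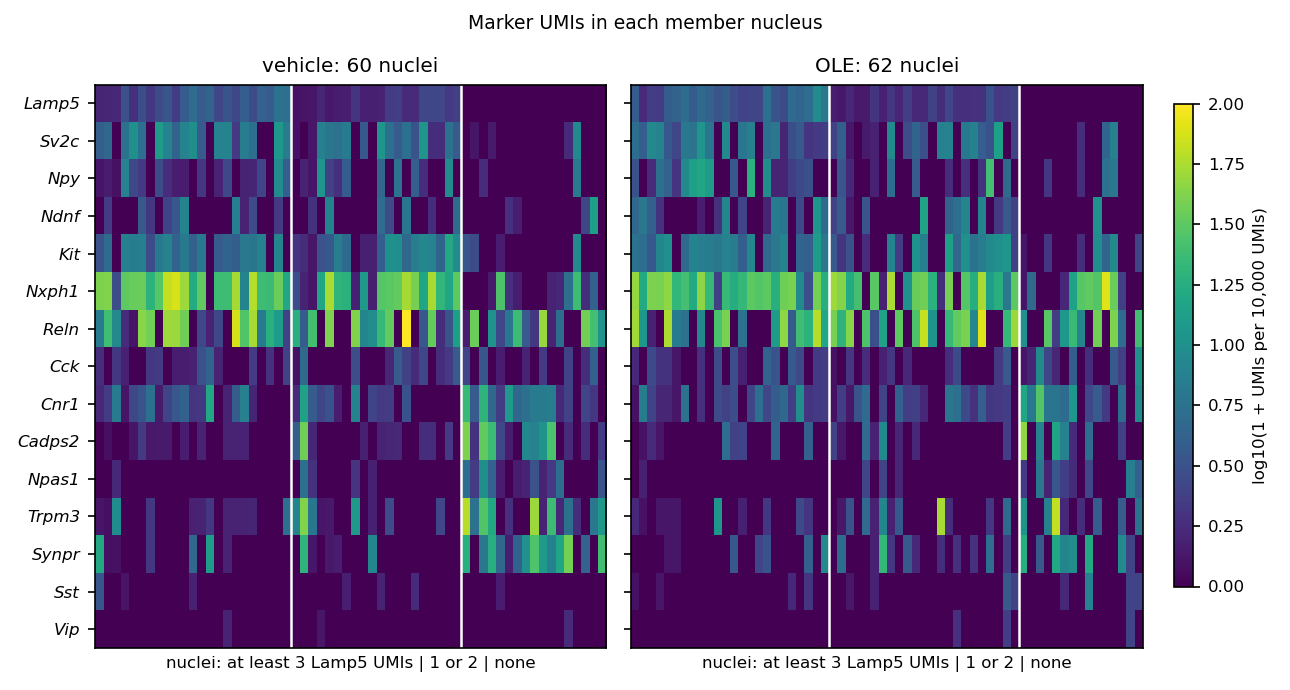
Each column is 1 member nucleus (60 vehicle, 62 OLE), ordered by its Lamp5 group, and colour is log10 of 1 plus UMIs per 10,000 for 15 genes. Lighter colours are higher values: Sv2c, Kit and Nxph1 were lighter in most nuclei with Lamp5. Cadps2 and Cnr1 parted the nuclei less clearly, and some nuclei with Lamp5 also held them. White lines part nuclei with at least 3, with 1 or 2 and with no Lamp5 UMIs.

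Against the Adarb2-low nuclei, 74 of 4773 genes (1.55%) were at least 4-fold higher in the members in both libraries and 59 (1.24%) at least 4-fold lower. At 2-fold the counts were 207 (4.34%) and 214 (4.48%). The groups were cut from these counts, so no test is given. Beside Ndnf, Kit, Sv2c and Lamp5, the genes highest in the members included Cacna2d1, a calcium channel subunit that binds gabapentin. It was at 1283 and 1498 CPM in the members and 37.6 and 74.2 in the Adarb2-low nuclei. The orexin receptor gene Hcrtr2 was 68.6-fold and 19.2-fold higher, the guidance cue gene Sema3c 49.2-fold and 17.4-fold, the transcription factor gene Nfix 28.5-fold and 16.3-fold, and the extracellular matrix proteoglycan gene Vcan 16.1-fold and 15.0-fold. On the other side stood Slit2, a secreted guidance cue (21.6-fold and 19.6-fold lower), Creb5 (22.3-fold and 19.3-fold lower) and Cacna2d2, a paralog of Cacna2d1 (12.0-fold and 10.8-fold lower). Thus the members and the Adarb2-low nuclei carried different calcium channel α2δ subunit transcripts in both libraries.

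Receptor and channel genes also separated the groups. Cnr1 was 12.3-fold and 7.58-fold higher in the members and the nicotinic receptor gene Chrna7 10.4-fold and 10.7-fold. The M-current potassium channel gene Kcnq5 was 6.65-fold and 9.26-fold higher. The kainate receptor gene Grik4 (2.32-fold and 2.36-fold) and the NMDA receptor gene Grin2a (2.82-fold and 3.48-fold) were higher as well. Lower in the members were Kcnc2, a potassium channel of fast-spiking cells (5.50-fold and 6.55-fold), and the AMPA receptor gene Gria1 (2.56-fold and 2.53-fold). Of the 7 genes of the medial eminence list that were measured, 6 were at least 2-fold lower in both libraries, with median log2 ratios of −3.61 and −4.33.

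Against the Vip nuclei, 53 of 2597 genes (2.04%) were at least 4-fold higher in the members in both libraries and 15 (0.578%) at least 4-fold lower. At 2-fold the counts were 158 (6.08%) and 72 (2.77%). With 15 and 17 Vip nuclei, these ratios rest on few cells. Reln was 56.6-fold and 8.46-fold higher in the members, Pde11a 8.47-fold and 10.5-fold, and Adamtsl1, an extracellular matrix protein gene, 12.2-fold and 15.4-fold. Lower in the members were the lipid phosphatase gene Plpp4 (23.8-fold and 30.0-fold), Ano4 of the anoctamin family (12.6-fold and 11.8-fold), the heparan sulfate sulfotransferase gene Hs6st3 (7.51-fold and 8.21-fold) and Shisa6, an AMPA receptor auxiliary subunit gene (7.24-fold and 7.21-fold). The vesicle protein gene Synpr was 6.25-fold and 13.3-fold lower and the metabotropic glutamate receptor gene Grm7 4.88-fold and 5.31-fold lower.

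The comparison of OLE with vehicle asked how these interneurons differed between the library of OLE-treated mice and the library of vehicle-treated mice. In the members, 4038 genes had at least 100 UMIs. Of these, 190 (4.71%) were at least 1.5-fold higher in the OLE library and 106 (2.63%) at least 1.5-fold lower, and the median log2 ratio was 0.027. The 5th to 95th percentile range of the log2 ratios was −0.45 to 0.58. With the nucleus holding the most UMIs of each gene left out, 173 of the 190 and 91 of the 106 stayed past 1.5-fold. In the Vip nuclei 64 of 820 genes (7.80%) were higher and 52 (6.34%) lower, and in the Adarb2-low nuclei 247 of 5341 (4.62%) and 42 (0.786%). The higher genes were shorter than the lower ones, with median gene lengths of 39.2 and 162 kb against 76.5 kb for the measured genes. Whether gene length, nuclear RNA retention or sample handling had a part in the ratios was not tested. Summed counts cannot tell more RNA per nucleus from more nuclei of one kind within the members.

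Apoe, which encodes the main lipid carrier protein of astrocytes, had the highest log2 ratio, and 1 nucleus supplied most of it. It had 47 UMIs in vehicle members and 561 in OLE members, a log2 ratio of 3.81 (3.38 to 4.27). A single OLE nucleus of 28008 UMIs held 470 of the 561, together with 191 UMIs of the glutamate transporter gene Slc1a2, 44 of the water channel gene Aqp4 and 18 of the gap junction gene Gja1. The same nucleus held 172 Adarb2, 118 Reln and 11 Gad2 UMIs, and its Scrublet doublet score was among the highest 5% of its library. Without that nucleus the log2 ratio of Apoe was 1.22 (0.70 to 1.76) and that of Slc1a2 was 0.49 in place of 1.45. In the Adarb2-low nuclei the Apoe ratio was 0.29. Thinned to 2000 UMIs, 5% and 21% of members held an Apoe UMI, against 50.7% and 68.2% of oligodendrocyte nuclei. Oligodendrocyte nuclei may use Apoe themselves, so their share does not measure free RNA alone. The members' own Apoe could not be told apart from free RNA.

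The whole astrocyte marker list was at 233 CPM in vehicle members and 609 in OLE members, or 348 without that nucleus, which held 44.2% of the list's UMIs there. The oligodendrocyte list was at 128 and 134, the microglia list at 54.8 and 52.9, and the glutamatergic neuron list at 406 and 472. The oligodendrocyte precursor list was at 103 and 159 and the vascular list at 6.76 and 24.7. Vcan, which the members themselves carried, gave 125 of the 137 and 156 of the 180 precursor UMIs, and the list without it was at 9.01 and 21.2 CPM. In OLE members Olig2, Inpp5d and Abcc9 were at 0, and in vehicle members Flt1, Abcc9 and Slc47a1. Leaving out the astrocyte-marked nucleus gave 191 genes higher and 103 lower. Keeping the 36 and 37 members with at most 10 UMIs of all glial and vascular markers left 2238 measured genes, 91 higher and 74 lower, of which 35 and 31 were among the genes called with all members. With Vcan not counted in that limit, 42 and 45 members and 2743 measured genes remained, of which 120 were higher and 80 lower. The part of the other markers in the remaining ratios was not tested.

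Among the other genes furthest from a ratio of 1, several act at the cell surface or are secreted. Npy had 149 UMIs in vehicle members and 272 in OLE members, a log2 ratio of 1.10 (0.81 to 1.40) that was 1.24 without the top nuclei. Chgb, a granin of dense-core vesicles, had 94 and 162 UMIs, a log2 ratio of 1.02 that was 0.96 in the Adarb2-low nuclei. Tnr, the extracellular matrix protein tenascin-R, had 180 and 375 UMIs (1.29), and the glypican gene Gpc5 had 52 and 180 (2.02). Transcripts without a named function were also high. A330008L17Rik had 42 and 173 UMIs with 78.6% of the OLE UMIs in 1 nucleus, and C130073E24Rik had 290 and 702. The guidance cue gene Slit3 had 76 and 141 UMIs (1.12) and the ectodysplasin gene Eda 77 and 135 (1.04).

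The lowest ratios included adhesion genes. The protocadherin gene Pcdh11x had 275 UMIs in vehicle members and 64 in OLE members, a log2 ratio of −1.87 (−2.29 to −1.47) that was −1.73 without the top nuclei. It was detected in 26 of 60 and 14 of 62 nuclei, with up to 84 UMIs in 1. The receptor gene Ror1 had 219 and 51 UMIs (−1.87) in 23 and 11 nuclei. The cadherin genes Cdh9 (213 and 63, −1.52) and Cdh4 (173 and 62, −1.25) and the contactin-associated protein gene Cntnap5b (165 and 67, −1.07) were lower in the OLE library too. For Cdh4, 79 of the vehicle UMIs were in the deepest nucleus, and without the deepest member of each library its ratio was −0.42. Trpm3 had 820 and 299 UMIs (−1.22), Synpr 605 and 222 (−1.21), Thsd7a 735 and 288 (−1.12) and the olfactomedin gene Olfm3 210 and 89 (−1.01). Without the deepest members these ratios were −1.40 for Pcdh11x, −0.87 for Synpr, −0.85 for Thsd7a and −0.47 for Olfm3, and that of Gm20754 was −0.64 in place of −1.29. Genes of this kind were held by few nuclei: over the lower genes the median share of vehicle UMIs in 1 nucleus was 15.7%, against 8.33% over the measured genes.

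The ratios of some of these varied with which members were read. Among members with at least 1 Lamp5 UMI the log2 ratio of Pcdh11x was −2.35. Among those with none it was 0.46 (−0.54 to 1.46), from 20 vehicle and 18 OLE UMIs. Gm20754 gave −2.16 and 0.61 (−0.10 to 1.33), the latter from 35 and 35 UMIs. For both genes the interval without Lamp5 included 0, so no opposite direction was shown there. Trpm3 (−0.84 and −1.18), Synpr (−1.44 and −0.75) and Thsd7a (−1.44 and −0.64) were lower in the OLE library on both sides. Htr2c was at 0.48 and −1.12. The difference between the sides was not tested.

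**Figure D4:**
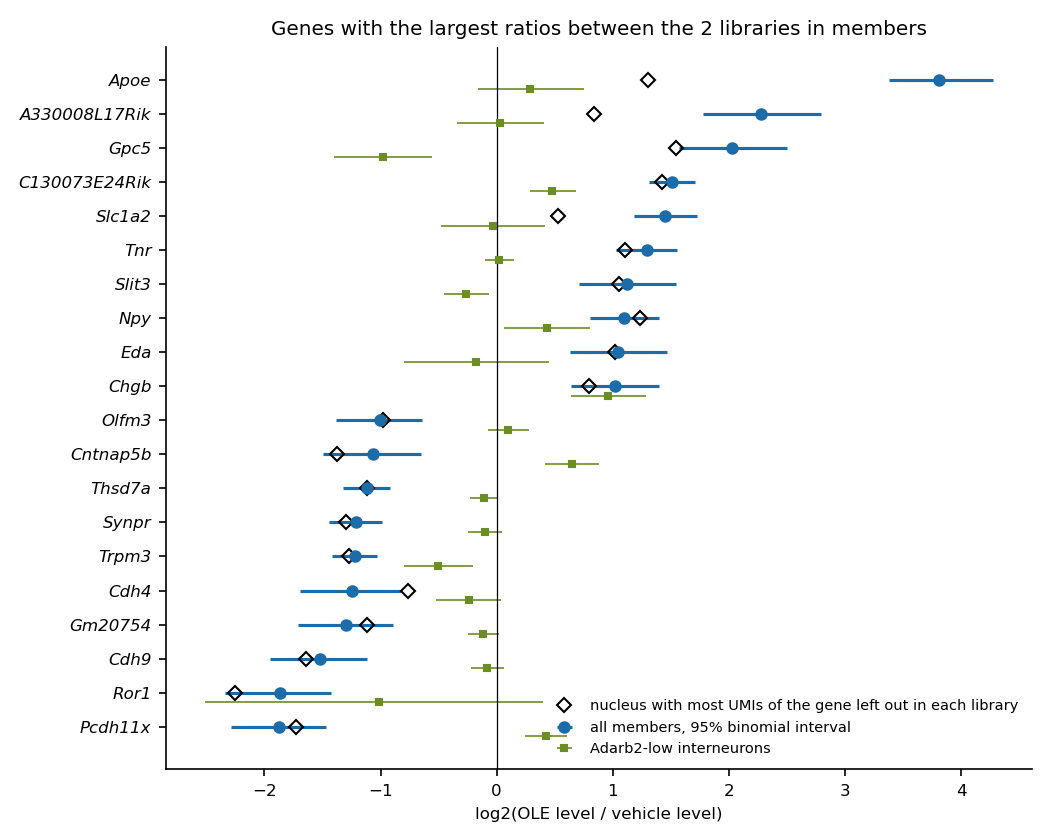
Log2 ratio of OLE over vehicle CPM in the members for the 20 named genes, with 95% counting intervals. Diamonds leave out the nucleus with the most UMIs of the gene and green squares are the Adarb2-low nuclei. Apoe moved from 3.81 to 1.30 without its top nuclei, and Npy and Pcdh11x stayed at 1.24 and −1.73.

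Genes of protein folding in the endoplasmic reticulum leaned towards the OLE library. Of the 20 in the list, 8 were measured, of which 4 were at least 1.5-fold higher and 0 lower. Over the 4038 genes 4.71% were higher and 2.63% lower. The list's median log2 ratio was 0.50 beside 0.027 over those genes. Hspa5, the chaperone BiP, had 54 UMIs in vehicle members and 116 in OLE members, or 40.5 and 102 CPM, a log2 ratio of 1.34 (0.86 to 1.83). No nucleus held more than 5 and 8 of its UMIs. Calr, the calcium-binding chaperone calreticulin, had 87 and 135 UMIs (0.87), Hsp90b1, the HSP90 paralog of this compartment, 118 and 178 (0.83), and the disulfide isomerase gene Pdia3 48 and 64 (0.65). Canx, Manf and Sel1l were at 0.35, 0.32 and 0.29, and Ppib was at −0.40.

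With each member thinned to 5000 UMIs, 20% of vehicle members (10.8 to 32.3) and 41.9% of OLE members (29.5 to 55.2) held an Hspa5 UMI. Hsp90b1 was found in 35% and 56.5% and Calr in 30% and 45.2%. Unthinned, Hspa5 was detected in 35 of 60 and 48 of 62 nuclei. Oligodendrocyte nuclei use these genes too, and thinned to 2000 UMIs they held Hspa5 in 13.1% and 18.2% against 6.67% and 19.4% of members, so free RNA could not be told apart from the members' own at that depth. The list was not particular to the members, since its median was 0.45 in the Adarb2-low nuclei. Hspa5, Calr and Hsp90b1 were higher in the OLE library on both Lamp5 sides (1.16 and 1.96, 0.85 and 0.92, 0.70 and 1.27). When each nucleus had equal weight, 2 of the list's genes were at least 1.5-fold higher and 1 lower. In the members with at most 10 glial and vascular UMIs, 4 of its genes were measured and 1 was past 1.5-fold, with a median of 0.44. With Vcan not counted in that limit, 3 of 5 were past it, with a median of 0.72.

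Many promoters of this list hold the endoplasmic reticulum stress element, spelled CCAAT, then any 9 bases, then CCACG, which the factors NF-Y and ATF6 are known to bind. Exact matches on either strand were sought from 250 bases before to 50 bases after each RefSeq gene start (GRCm38.p6). They were found for 37 of 27025 genes (0.137%), for 7 of the 18 list genes with a promoter (38.9%) and for 0 of 15 cytosolic chaperone genes. The list was written from known folding and stress genes of this compartment, so its share is a description and no test. The matches of the 4 genes measured in the members are shown because 3 of them were past 1.5-fold, with the fixed bases of the element in capitals. Each is written in the direction of the element, and its strand relative to the gene and the distance of its centre before the RefSeq start are given.
Hspa5, chr2:34772025-34772043, same strand, 56 bases before: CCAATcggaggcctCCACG
Calr, chr8:84847075-84847093, opposite strand, 153 bases before: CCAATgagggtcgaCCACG
Hsp90b1, chr10:86705533-86705551, opposite strand, 98 bases before: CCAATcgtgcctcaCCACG
Hsp90b1, chr10:86705638-86705656, same strand, 203 bases before: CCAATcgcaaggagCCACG
Canx, chr11:50325800-50325818, same strand, 136 bases before: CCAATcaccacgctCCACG
Canx, which holds the element, was at 0.35, and Pdia3, past 1.5-fold, was not among the genes with a match. A match describes letters in a window and not a bound site, and whether the element had a part in the ratios was not tested.

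Cytosolic chaperones gave a median of 0.41 over 5 measured genes, 2 of them at least 1.5-fold higher: Hsp90ab1 (0.80) and Hspa8 (0.63). Without the top nuclei of each gene 1 of the 5 was past 1.5-fold, and likewise 1 without the top 5% of Scrublet scores. With the filter at 50 UMIs, 6 of 13 were. Over all genes measured in the members 4.71% were higher. In the Adarb2-low nuclei the median of the chaperones was 0.50.

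Of 11 measured neuropeptide and granin genes, 5 were at least 1.5-fold higher in the OLE library, beside 4.71% of all genes measured, with 0 lower and a median of 0.53 (0.49 in the Adarb2-low nuclei). Beside Npy and Chgb these were Scg2 (0.92), the prohormone convertase inhibitor gene Pcsk1n (0.91) and the carboxypeptidase gene Cpe (0.71, or 0.45 without its top nuclei). Pcsk2, a convertase, was at −0.33 and Cck at 0.28. Chgb was found in 25% of vehicle and 48.4% of OLE members thinned to 5000 UMIs. With members thinned to 2000 UMIs, Chgb was found in 21.7% and 24.2%, so its shares lay close at that depth. Npy was found in 35% and 37.1% of members thinned to 5000 UMIs. The shares of nuclei with Npy thus lay close while its summed level differed.

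Of 10 measured genes tied to amyloid processing and transport, 6 were at least 1.5-fold higher in the OLE library, beside 4.71% of all genes measured. The list had 0 lower and a median of 0.79 (0.44 in the Adarb2-low nuclei). Apoe and the secreted chaperone gene Clu (1.58, or 0.97 without the astrocyte-marked nucleus) led it. Cst3 was at 0.97 (0.61 without that nucleus), Itm2b at 0.94, and the APP family genes Aplp1 and Aplp2 at 0.80 and 0.78. App itself was at 0.19 and the α-secretase gene Adam10 at −0.26. Transgene transcripts could add to the counts of App, and their share was not tested. Without the members in the top 5% of Scrublet scores the median was 0.38. Thinned to 2000 UMIs, Itm2b was found in 21.7% and 38.7% of members and in 35.7% and 50.3% of oligodendrocyte nuclei. Its source in the members could therefore not be told apart from free RNA. With members thinned to 5000 UMIs, Itm2b was found in 55% and 56.5%, so its shares lay close at that depth.

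Among genes of GABA handling, the vesicular GABA transporter gene Slc32a1 had 97 UMIs in vehicle members and 130 in OLE members (log2 ratio 0.66, or 0.53 without its top nuclei). It was found in 26.7% and 48.4% of members thinned to 5000 UMIs. Gad2 and Gad1, which the rule used, were at 0.29 and 0.19, and Abat, which breaks down GABA, was at −0.43. Gabrd, the δ subunit of extrasynaptic GABA receptors, was at 1.10. It was detected in 41.7% and 50% of members unthinned, but in 21.7% and 17.7% thinned to 5000 UMIs. In the Adarb2-low nuclei Slc32a1 was at 0.82 and Gabrd at 0.70, so neither rise was particular to the members.

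The Lamp5 class list had 5 of 10 measured genes at least 1.5-fold higher, beside 4.71% of all genes measured, and a median of 0.47. Npy, Gabrd, Id2 (0.89), Ndnf (0.86) and Lamp5 (0.63) were higher in the OLE library, and Kit (0.31), Reln (0.08) and Sv2c (−0.07) were not past the fold. The Cck class list had 5 of 11 genes measured, 0 higher and 2 lower, beside 2.63% lower over all genes measured. The lower ones were Npas1 (−1.03) and Cadps2 (−0.83, or −1.53 without its top nuclei). The median of the Cck class list was −0.28. The members with at least 3 Lamp5 UMIs were 23 of 60 and 24 of 62, so the gate counts lay close while the list medians differed in sign.

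Receptor and release genes had medians close to the 0.027 of all genes measured, of which 4.71% were higher and 2.63% lower. Of 20 measured glutamate receptor genes 0 were higher and 2 lower, Grin3a (−0.67) and Grm8 (−0.59), with a median of −0.06. Without the deepest members Gria1 and Grik3 were at 0.61 and 1.28. Synaptic vesicle genes had 2 of 15 higher, Syt4 (1.11) and Syp (0.75), and a median of −0.02. Potassium channel genes had 0 of 19 higher, 1 lower, Kcnip4 (−0.71), and a median of −0.10. Synaptic adhesion genes had 1 of 17 in each direction, Cntnap4 (0.79) and Cntnap5a (−0.74, or −0.53 without the deepest members). Ion pump genes had 1 of 7 higher, the sodium pump subunit gene Atp1b1 (351 and 538 UMIs, 0.85), and a median of 0.31 (0.37 in the Adarb2-low nuclei). Nuclear RNAs had 0 of 6 past the fold and a median of −0.02. Of 8 measured neuromodulator receptor genes 1 was higher and 1 lower. The higher one, the muscarinic receptor gene Chrm2, had 17 and 170 UMIs from 7 OLE nuclei, 55.9% of them in 1, and the lower one was Htr2c (−0.89). The caudal lineage list had 1 of 5 lower and a median of −0.34. The medial lineage list had 2 of 3 lower, and its median of −0.84 rested on the deepest vehicle nucleus, without which it was 0.20. Of 11 immediate early genes 1 was measured, Homer1, with 169 and 111 UMIs and a log2 ratio of −0.37.

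**Figure D5:**
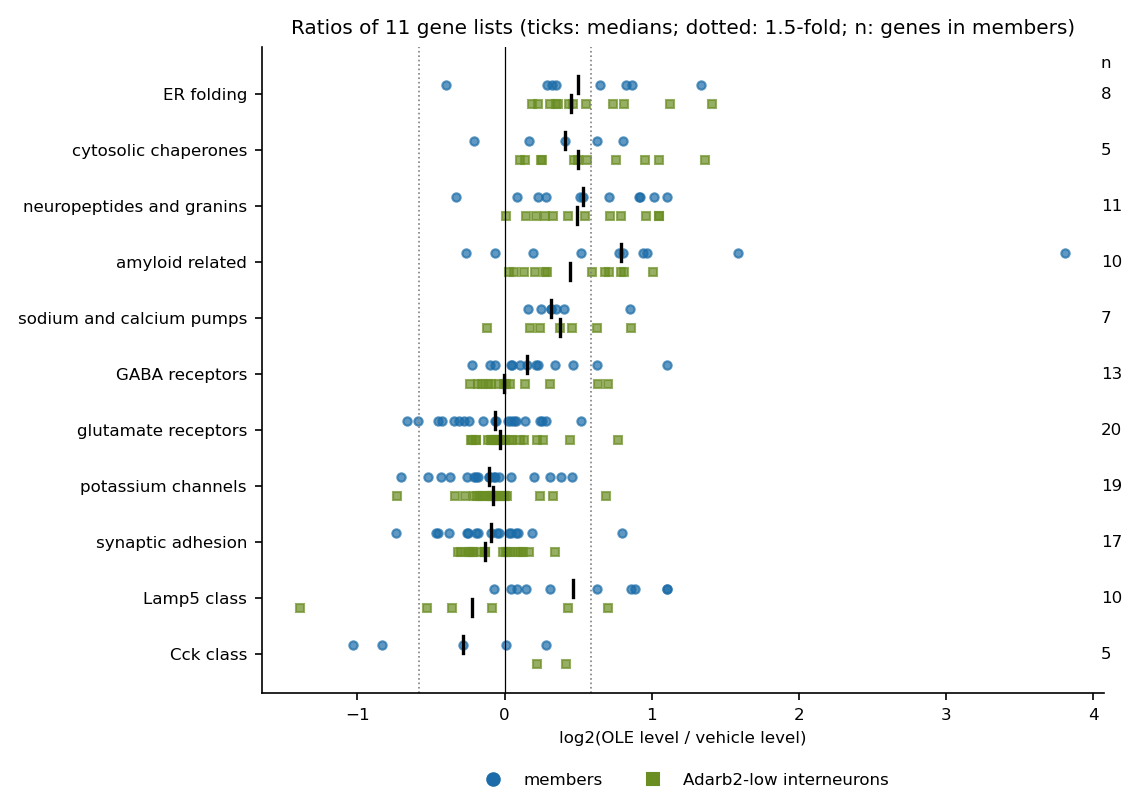
Log2 ratio of OLE over vehicle for each measured gene of 11 lists in the members and the Adarb2-low nuclei, with a tick at each median, dotted lines at 1.5-fold and the number of genes at right. Medians for endoplasmic reticulum folding were 0.50 and 0.45, and those for glutamate receptors and potassium channels lay near 0.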

How the data were processed

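Single-nucleus RNA was measured in 2 libraries, vehicle and OLE, each from frozen entorhinal cortex of 5 mice. The authors deposited raw UMI counts per gene and nucleus, made with Cell Ranger 3.0.1 per the methods on a mm10 pre-mRNA reference, so intronic reads were counted and long genes collect more of them. The methods state that doublets were removed with Seurat 4.0.4, and the matrices hold as many nuclei as the study gives. Both matrices (31053 genes) were read as deposited, and the limits on UMIs were applied to each nucleus. Counts were summed per library and group, divided by the group's total UMIs and given per 1000000 UMIs (CPM). With 1 library per group no test was made. Ratios carry 95% counting intervals (conditional binomial for ratios, Poisson for levels, Clopper-Pearson for shares). A gene was compared where the members of the 2 libraries together held 100 or more of its UMIs, and 1.5-fold was the call. Counts of 0 take a floor of 3 counts. Scrublet (in scanpy 1.11.5) called 7 vehicle and 8 OLE nuclei (0.104% and 0.130%), no nucleus was removed, and dropping the top 5% of scores was an alternative. That 5% held 3 and 7 members. Shares of nuclei were compared after thinning to 5000 or 2000 UMIs. Gene coordinates and lengths came from GENCODE vM21, which matched 99.6% of the genes, and promoters from RefSeq (GRCm38.p6). Python 3.11.15, numpy 2.4.6, scipy 1.17.1, pandas 2.3.3 and matplotlib 3.10.9 were used, and the ratio script was tested on simulated data.

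The genes named were the 10 highest and 10 lowest OLE to vehicle ratios in members among genes with at least 200 UMIs whose interval excludes 0, the 15 genes highest over Adarb2-low nuclei, the 10 highest and 10 lowest over Vip nuclei, ranked by the smaller ratio of the 2 libraries, the list genes and the markers. The ranking of genes lowest against Adarb2-low nuclei, the split by Lamp5 and the promoter motif were added after the values were seen. The members and the lists were chosen with earlier results of these data known. Alternatives were a UMI limit of 10000, an Adarb2 limit of 20, Vip at 0, a glial UMI limit of 10 with or without Vcan, equal weight per nucleus, median-of-ratios scaling, mitochondrial genes left out, filters of 50 UMIs or none, thinning and leaving out nuclei. Some list genes are not reported here.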

Additional observations from a re-analysis of the deposited data

Results flagged for a closer look

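These genes had OLE to vehicle ratios in the members and in another interneuron group with opposite signs and counting intervals that did not reach 0. With 1 library per group the difference was not tested. Compared with the Adarb2-low nuclei, the log2 ratio of Gpc5 was 2.02 in the members and −0.98 in those nuclei, that of Slit3 1.12 and −0.26, and that of Pcdh11x −1.87 and 0.43. Cntnap5b was at −1.07 in the members and 0.65 in the Adarb2-low nuclei, Grm8 at −0.59 and 0.77, and Htr2c at −0.89 and 1.51. Compared with the Vip nuclei, C130073E24Rik was at 1.51 in the members and −1.57 in those nuclei, Gm20754 at −1.29 and 0.36, and Thsd7a at −1.12 and 0.48. Olfm3 was at −1.01 in the members and 1.01 in the Vip nuclei, Grin3a at −0.67 and 2.63, and Cntnap5a at −0.74 and 1.16. The Grin3a ratio in the Vip nuclei rests on 13 and 91 UMIs. Without the nucleus holding the most UMIs of each gene in each library, the ratio in the members was 1.55 for Gpc5, −1.73 for Pcdh11x, −1.37 for Cntnap5b and −0.75 for Htr2c. Where the third group was read, Gpc5 was at 2.41 (0.87 to 4.40) and Htr2c at −1.07 in the Vip nuclei, both in the direction of the members, and C130073E24Rik was at 0.48 in the Adarb2-low nuclei. Without the deepest member of each library the ratio in the members was −0.47 for Olfm3, −0.64 for Gm20754 and −0.53 for Cntnap5a.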

How the results depend on the processing

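No paired analysis was possible because each group was 1 library, and for that reason no replicate could be left out either. Of 320 recomputed counts, shares and list medians, 296 stayed within the stated limits, 22 moved and 2 reversed. Of 2601 recomputed single-gene OLE to vehicle ratios, 2335 stayed, 261 moved and 5 reversed, and of 300 ratios of members over other interneurons 246 stayed, 54 moved and 0 reversed. The 2335 include the filters of 50 UMIs or none, which leave a gene's own ratio unchanged and could not move it. They also include median-of-ratios scaling and leaving out mitochondrial genes, which shift all ratios by 1 small amount. Leaving out members with over 10 glial and vascular UMIs left 36 and 37 members (24.5% and 20.3% of the GABAergic nuclei), 91 genes higher and a neuromodulator receptor median of −0.34, with Cntnap4 at −0.10. Filtering at 50 UMIs gave 509 genes higher and 217 lower. With no filter, 3020 were higher and 1728 lower, and the medians were 0.23 for neuromodulator receptors, 0.0061 for the Cck class and −0.0081 for the medial lineage. Without the top Scrublet scores the amyloid median was 0.38, the synaptic adhesion median −0.0055 and Slc1a2 was at −0.0094. With equal weight per nucleus the Cck class median was −0.054 and the medial lineage median −0.076. At a 10000 UMI limit the caudal lineage median was −0.55. The following alternatives were chosen after seeing the data. With Vcan not counted in the glial limit, members were 28.6% and 24.7% of the GABAergic nuclei, 120 genes were higher and the amyloid median was 0.48. Without the nucleus holding the most UMIs of a gene, the medial lineage median was 0.19 and Sox6 0.91. Without the deepest member of each library they were 0.20 and 1.31. In members with Lamp5, Htr2c was at 0.48. The causes were not tested. Median-of-ratios scaling shifted the ratios by 0.027. At the depth of 60 and 62 nuclei, 8 of 22 neuromodulator receptor genes and 3 of 12 medial lineage genes reached 100 UMIs, and smaller differences of the others were not detectable here.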
